A study of Aconitum japonicum with 4 samples.

Results

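Transcripts dominant in the mother root of *Aconitum japonicum* were examined as one group. *Aconitum* species are perennial herbs of the buttercup family that make toxic diterpene alkaloids, and their tuberous roots are processed as a crude drug. The mother root is the main root, from which the daughter roots sprout as new roots, and the rootlets are the fibrous roots. In lists of levels the tissues are shortened to MR for mother root, DR for daughter root, RT for rootlet and LF for leaf. A root tuber stores reserves such as starch and carries the plant from one season to the next, and its cells also hold the alkaloids on which the medicinal use rests.

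The members were selected on the expression values themselves, so their dominance in mother root is a description and not a result. A transcript was a member when its FPKM (mapped fragments scaled to the length of the transcript and the depth of the library) was at least 20 in mother root, its expected count (the number of fragments assigned to it) was at least 50 there, and its mother root FPKM was at least 4 times that of leaf, of daughter root and of rootlet. Of the 129760 assembled transcripts, 66 were members, which is 0.0509% of all. They came from 61 Trinity genes (groups of sequences that the assembler treats as forms of one gene) and 49 components. A component is here the wider group of all sequences with the same TR number, which their names divide further by c number.

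The series holds 4 libraries, 1 for each of the 3 root tissues and 1 for leaf, from greenhouse-grown *A. japonicum* plants, with no treatment, mutation or control group and no stated plant age. Each tissue had 1 biological sample, so no difference between tissues has a replicate check, and no test was made. The libraries held 4516426 fragments in LF, 11801534 in MR, 12792781 in DR and 4492151 in RT. Intervals given below are 95% limits on a ratio of counts and cover counting error only. A lower bound given as "at least" sets a library with no fragments at 3 fragments. It takes the mother root count as exact, so it can lie above the 95% lower limit. The labels were set against transcripts whose held descriptions name photosystem proteins, the light-harvesting machinery of green tissue. Both of these peaked in leaf, at 2.18 and 23.7 FPKM, and reached at most 0.5 FPKM in mother root. The first rests on 5 fragments in leaf and 3 in mother root, the second on 44 and 0, so the check is a weak one. No file used here describes a marker of the mother root, so its label was not checked in that way.

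Few abundant mother root transcripts met the rule. Both mother root minimums were passed by 8412 transcripts, and 66 of these (0.785%) stood at least 4 times above each other tissue. Taken singly, the threshold of 4 times was met over leaf by 1824 of the 8412 (21.7%), over daughter root by 449 (5.34%) and over rootlet by 412 (4.9%). Mother root was the highest of the 4 tissues for 2810 of them (33.4%). Because the rule used these values, nothing is read from the shares, but they show where the restriction lay: 179 transcripts missed the rule only against daughter root, 177 only against rootlet and 53 only against leaf.

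**Figure D1:**
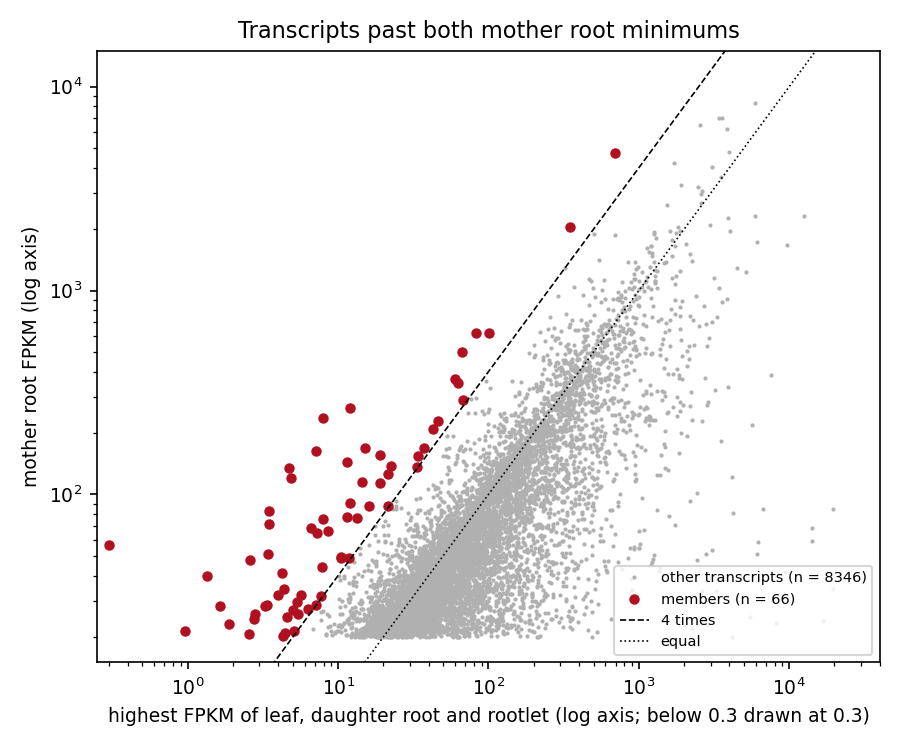
Mother root FPKM (y axis) against the highest FPKM of leaf, daughter root and rootlet (x axis), both on log axes, for the 8412 transcripts past both mother root minimums. The 66 members (red) lie on or above the dashed line of 4 times, and the other 8346 (grey) spread around the dotted line of equal levels.

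Applying the same rule to each other tissue gave larger groups, with 1219 transcripts dominant in LF, 490 in DR and 745 in RT. When the count minimum was set at the depth of the smallest library, 41 of the 66 mother root members stayed, against 1211, 418 and 745 in leaf, daughter root and rootlet. The mother root members held 68264 fragments, or 0.578% of their library. The transcripts dominant in leaf held 28.5% of the leaf fragments, those dominant in daughter root 10.9% and those dominant in rootlet 8.56%. Median levels were closer together, at 70.4 FPKM for the mother root members and 62.0, 69.1 and 84.2 FPKM for the leaf, daughter root and rootlet groups in their own tissues.

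The members ranged from 20.3 to 4717 FPKM in mother root, with 25 at 100 FPKM or more and 2 at 1000 FPKM or more. In leaf their median was 2.10 FPKM (range 0 to 698), in daughter root 4.91 FPKM (0 to 100.4) and in rootlet 3.44 FPKM (0 to 97.4). Mother root stood at a median of 41.0 times leaf, 16.3 times rootlet and 10.9 times daughter root. Against the highest of the other 3 tissues, the median ratio was 7.11, and 27 members reached 8 times. Leaf had no fragment of 18 members, rootlet none of 8 and daughter root none of 5, while 43 members had fragments in all 4 libraries. In whole tissues, fewer cells that express a transcript and less of it in each cell cannot be told apart. The leaf and rootlet libraries were the smallest, so that a zero there allows a higher level than a zero in daughter root.

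**Figure D2:**
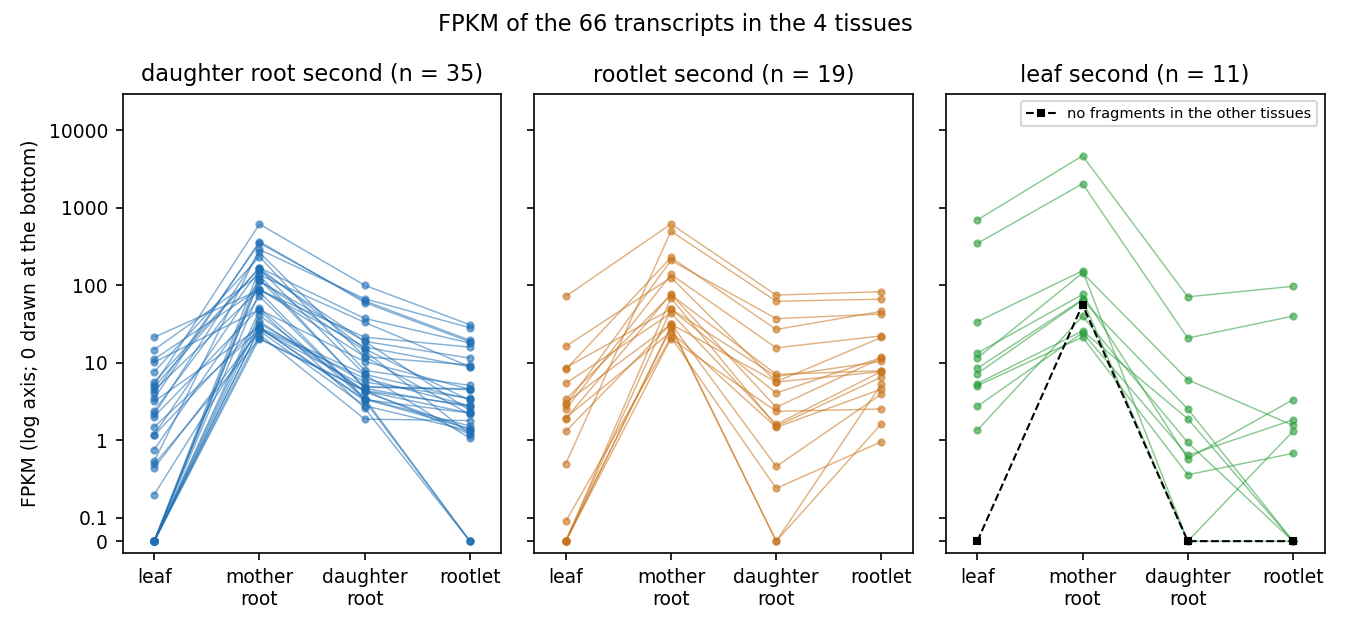
FPKM of each member in the 4 tissues (log y axis, with 0 drawn at the bottom), 1 line per transcript, in panels by the tissue with the second highest level: daughter root (35), rootlet (19) and leaf (11). The dashed line in the leaf panel is TR45149|c0_g5_i1, which had no fragments outside mother root.

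A single component held the 2 most abundant members. TR44121|c6_g1_i4 (338 bases) was at 4717 FPKM in MR, 698 in LF, 97.4 in RT and 71.2 in DR, and ranked 8 among all transcripts of the mother root library. TR44121|c3_g2_i1 (420 bases) was at 2053 FPKM in MR, 348 in LF, 40.2 in RT and 20.9 in DR. Leaf came second for both, with mother root 6.75 times higher (6.22 to 7.35) for the first and 5.90 times higher (5.35 to 6.52) for the second. Against daughter root the ratios were 66.2 (57.0 to 77.4) and 98.2 (78.0 to 125).

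The other 6 transcripts of TR44121 did not meet the rule. TR44121|c5_g1_i1 was at 6499 FPKM in LF and 4.14 in MR, and TR44121|c5_g1_i2 at 7638 in LF and 1.61 in MR. TR44121|c6_g1_i1 and TR44121|c6_g1_i3, both of the same Trinity gene as the most abundant member, were highest in daughter root, at 1084 and 1222 FPKM, against 759 and 741 in mother root. TR44121|c6_g2_i1 was at 4032 FPKM in MR and 3070 in LF, and TR44121|c4_g1_i1 was at 263 FPKM in MR and 100.5 in LF. Sequences under the same TR number thus peaked in 3 different tissues. Both of those highest in leaf had the c number c5, which neither member had. Summed over its 3 transcripts, Trinity gene TR44121|c6_g1 was at 6218 FPKM in MR and 2377 in DR, and so no longer met the rule.

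TR44121|c6_g1_i4 was assigned to orthogroup OG0000080 in the part of the study's orthogroup list used here. An orthogroup collects sequences from several species that descend from one ancestral gene. All 6 *A. japonicum* transcripts of this orthogroup belonged to component TR44121, beside 9 transcripts of *A. carmichaelii* and 2 of *A. heterophyllum*. No description of any of them was in the tables used here, so the function of the most abundant member is not given.

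Components TR52757 and TR54318 held 11 members between them. Of the 6 transcripts of TR52757, 5 were members, and 4 of those belonged to Trinity gene TR52757|c0_g1. TR52757|c0_g1_i3 (1613 bases) was at 368 FPKM in MR, 60.1 in DR, 18.7 in RT and 3.48 in LF. TR52757|c0_g1_i2 (1024 bases) was at 352, 63.1, 19.6 and 4.05 FPKM in the same order. The long forms thus kept about the same ratio to daughter root, at 6.13 (5.75 to 6.54) and 5.58 (5.14 to 6.05).

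The short members of TR52757|c0_g1 stood further above daughter root. TR52757|c0_g1_i1 (235 bases) was at 236 FPKM in MR, 7.98 in DR, 7.65 in LF and 5.12 in RT. TR52757|c0_g1_i7 (279 bases) was at 163 FPKM in MR, 7.11 in DR and 3.40 in RT, with no fragment in leaf. Their ratios to daughter root were 29.6 (15.3 to 65.4) and 22.9 (12.9 to 45.0), on 9 and 12 daughter root fragments. Forms of the same gene can share fragments and the rule used these ratios, so the difference from the long forms was not tested. TR52757|c0_g3_i1 (964 bases), the remaining member, was at 169 FPKM in MR and 37.5 in DR. The sixth transcript, TR52757|c0_g1_i6, followed the same order of mother root over daughter root at a lower level (7.45 and 1.28 FPKM).

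In TR54318, 6 of 10 transcripts were members, between 40.0 and 291 FPKM in MR and at most 5.71 FPKM in LF. TR54318|c10_g1_i5 (556 bases) was at 291 FPKM in MR, 67.3 in DR, 28.4 in RT and 0.54 in LF. TR54318|c10_g2_i2 (1390 bases) was at 210 FPKM in MR, 42.7 in RT, 37.2 in DR and 2.85 in LF. TR54318|c10_g15_i1, TR54318|c10_g13_i1 and TR54318|c10_g5_i1 were at 168, 157 and 115 FPKM in MR and between 14.4 and 19.0 FPKM in DR. TR54318|c10_g2_i3 (313 bases) had 78 fragments in MR against 1 in LF, 2 in DR and 0 in RT, and its ratio of 29.7 to leaf carried limits of 5.19 to 1190. Of the other 4, TR54318|c10_g2_i4 was below 4 times rootlet (169 FPKM in MR, 54.7 in RT) and TR54318|c10_g4_i1 was slightly higher in daughter root (33.5 FPKM) than in mother root (30.4 FPKM).

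**Figure D3:**
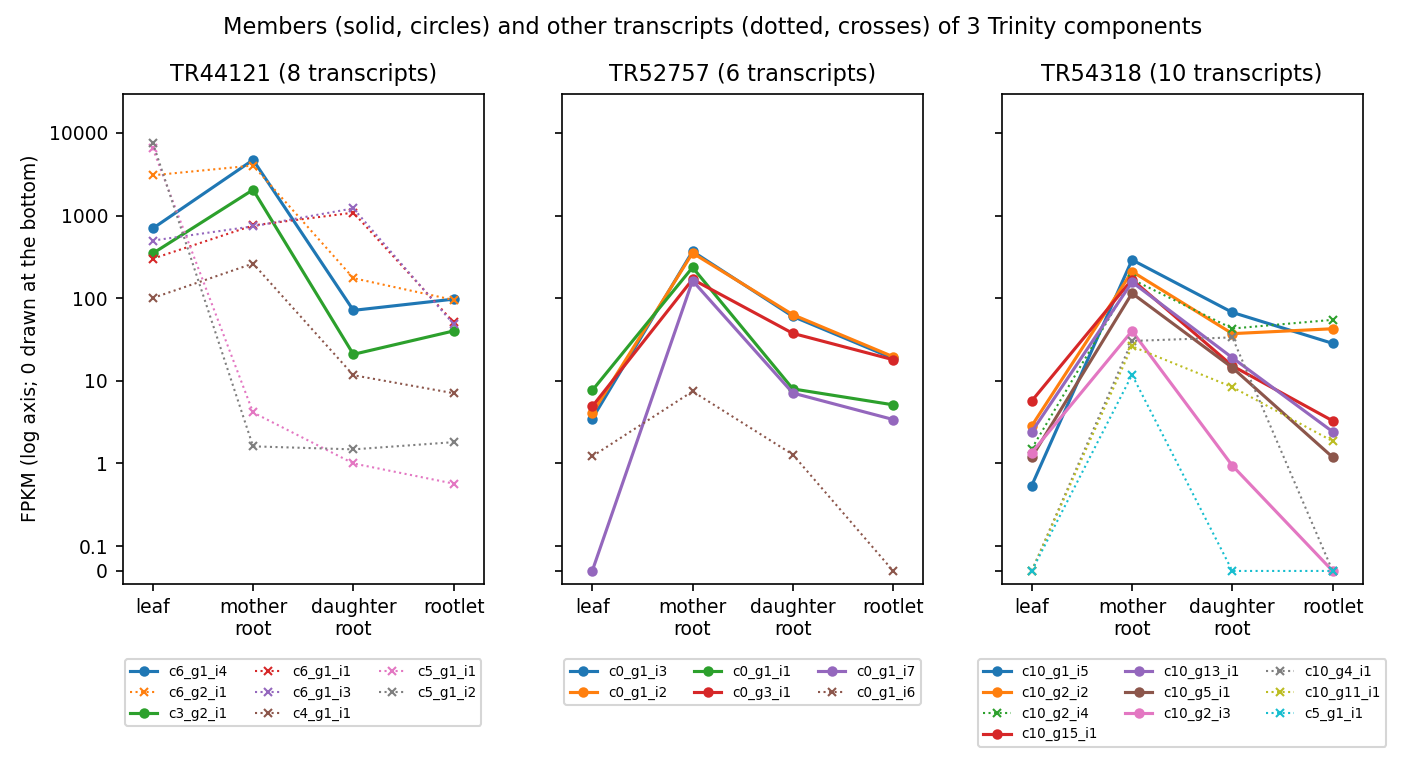
FPKM of every transcript of components TR44121, TR52757 and TR54318 in the 4 tissues (log y axis, with 0 drawn at the bottom), members as solid lines with circles and other transcripts as dotted lines with crosses. All 6 transcripts of TR52757 peak in mother root, whereas those of TR44121 peak in leaf, mother root or daughter root.

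TR43808 and TR45149 held 3 members each. TR43808|c2_g1_i2 (1236 bases) was at 90.6 FPKM in MR, 11.99 in DR, 11.2 in LF and 9.41 in RT. TR43808|c2_g1_i1 (1339 bases), another form of that gene, peaked in daughter root (92.8 FPKM), followed by mother root (59.3 FPKM) and leaf (47.1 FPKM). TR43808|c0_g1_i1 and TR43808|c3_g1_i1 were at 88.1 and 75.7 FPKM in mother root and at most 16.1 and 7.92 FPKM elsewhere. The members of TR45149 were short and sparsely covered, with 53, 84 and 50 fragments in mother root for TR45149|c0_g5_i1, TR45149|c0_g1_i1 and TR45149|c0_g2_i1. TR45149|c0_g5_i1 (227 bases) was the single member with no fragment in the other 3 libraries, which places mother root at least 19.4-fold higher than daughter root, 6.72-fold higher than leaf and 6.69-fold higher than rootlet.

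TR28333|c0_g4 was the third Trinity gene with more than 1 member: TR28333|c0_g4_i2 and TR28333|c0_g4_i1 were at 32.2 and 20.6 FPKM in mother root and at most 5.67 and 2.54 FPKM elsewhere. In all, 8 components held 2 or more members and 25 of the 66 members, so the members are not independent of each other. Another 60 transcripts of the 49 components were no members: 37 of them were highest in mother root, 14 in LF, 7 in DR and 2 in RT, and 43 were below one of the mother root minimums. Summing FPKM over each of the 61 Trinity genes kept 59 highest in mother root, of which 53 stayed at least 4 times above each other tissue. The 2 that became highest in leaf were TR24763|c0_g1 and TR41899|c1_g1. The expected counts were all whole numbers, and how fragments matching several forms of a gene were shared out is not given in the sources used here, so the level of a single form is less certain than that of its gene.

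Several abundant members stood alone in their component. TR55683|c1_g1_i1 (2379 bases) had the most fragments of any member, 13178 in MR, and was at 500.5 FPKM there, 66.5 in RT, 62.5 in DR and 0.5 in LF. The 3 root tissues all carried it, with mother root 7.53 times rootlet (6.97 to 8.15) and 8.01 times daughter root (7.63 to 8.43), whereas leaf held 5 fragments. TR61657|c0_g1_i1 (320 bases) was at 620 FPKM in MR and at nearly equal levels of 83.0, 75.01 and 72.3 FPKM in RT, DR and LF. TR32034|c0_g1_i1 (234 bases) was at 618 FPKM in MR, 100.4 in DR, 31.1 in RT and 5.16 in LF. TR39963|c0_g1_i1 (251 bases) was at 266 FPKM in MR and 12.02 in DR, with 1 fragment each in LF and RT. The 4 members with the most fragments held 53.8% of the fragments of all members and the 10 with the most held 76.8%.

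Daughter root was the second tissue for 35 members (53.0%), rootlet for 19 (28.8%) and leaf for 11 (16.7%). Among the 2744 other transcripts that passed both minimums and were highest in mother root, daughter root was second for 41.9%, rootlet for 46.4% and leaf for 11.7%. The 35 members with daughter root second had a median of 7.09 FPKM in DR, 2.82 in RT and 1.16 in LF. The 3 with the highest daughter root levels were TR32034|c0_g1_i1, TR54318|c10_g1_i5 and TR52757|c0_g1_i2, described above. The 19 with rootlet second had a median of 7.92 FPKM in RT, 4.08 in DR and 1.96 in LF. TR61657|c0_g1_i1, TR55683|c1_g1_i1 and TR14514|c0_g1_i1 were the highest of these in rootlet.

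The 11 members with leaf second had a median of 8.52 FPKM in LF and of 0.94 and 1.31 FPKM in DR and RT. Of the 11, 8 had at most 4 fragments in each of these 2 roots. Leaf itself was sparsely covered for several. TR54318|c10_g2_i3 had 1 leaf fragment, against 2 in the deeper daughter root library. TR22737|c0_g1_i1 and TR27129|c0_g2_i1 had 3 each, TR43928|c1_g1_i1 and TR45149|c0_g2_i1 had 4 each and TR29469|c0_g1_i1 had 8. The others had 15 to 598 leaf fragments. After the 2 members of TR44121, the highest in leaf was TR24763|c0_g1_i1 (318 bases), at 154 FPKM in MR, 34.0 in LF and 1.31 in RT. It had no fragment in daughter root, although that library was the deepest, which places mother root at least 113-fold higher than daughter root. Its partner form TR24763|c0_g1_i2 (308 bases) ran the other way between leaf (255 FPKM) and mother root (85.2 FPKM) and also had no fragment in daughter root. TR29469|c0_g1_i1 (76.4 FPKM in MR, 13.4 in LF) was joined in its component by TR29469|c0_g2_i1, which was higher in leaf (64.9 FPKM) than in mother root (14.4 FPKM). TR27129|c0_g2_i1 (24.5 and 2.75 FPKM) was joined likewise by TR27129|c0_g1_i1 (6.80 FPKM in MR, 23.3 in LF). Of the 8 components that held a leaf-second member and further transcripts, 6 contained a transcript highest in leaf. Over all 49 components, 8 did so, and 24 of the 49 held only 1 transcript. In TR43928 and TR45149 the transcript highest in leaf had only 4 and 3 leaf fragments.

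Some members were almost absent from both leaf and daughter root. TR53348|c0_g1_i2, at 2700 bases the longest member, was at 21.5 FPKM in MR, 0.96 in RT, 0.24 in DR and 0.09 in LF. Its 646 mother root fragments stood against 11, 8 and 1, with mother root 22.4 times rootlet (12.4 to 45.0) and 87.6 times daughter root (44.2 to 204). TR32264|c0_g1_i1 (420 bases) had 91 fragments in MR, 2 in RT and none in LF or DR. TR55681|c1_g3_i1 (400 bases) had 88 fragments in MR, 6 in RT and none in the other 2 libraries. Its component also held TR55681|c1_g1_i1, a sequence of 8813 bases that was no member: it was at 388 FPKM in MR and 228 in RT, with 10 fragments (0.09 FPKM) in DR and none in LF.

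Counting error alone left the group at different certainty. The limits come from the counts that the rule used and make no allowance for that selection. For all 66 members, the lower limit of each of the 3 ratios was above 1. With 50 fragments and 4 times asked by the rule, that was nearly fixed in advance, so nothing is read from it. It was at least 2 for 64 members and at least 4 for 33. The 10 members with the largest lower limits were TR39963|c0_g1_i1 (13.4), TR52757|c0_g1_i7 (12.9), TR53348|c0_g1_i2 (12.4), TR44818|c1_g1_i2 (11.9), TR40623|c0_g1_i2 (11.5), TR52757|c0_g1_i1 (10.4), TR45810|c0_g2_i1 (10.3), TR42818|c2_g1_i1 (8.76), TR42818|c1_g1_i1 (8.75) and TR54318|c10_g15_i1 (8.35). TR44818|c1_g1_i2 (440 bases) was at 72.0 FPKM in MR, 3.47 in DR, 1.53 in RT and 0.76 in LF. TR40623|c0_g1_i2 (1565 bases) was at 51.0 FPKM in MR and at most 3.42 FPKM elsewhere, while its second form TR40623|c0_g1_i1 was at 19.8 FPKM in MR, 16.8 in RT and 11.8 in LF. The 2 members of TR42818, at 135 and 82.6 FPKM in MR, had no fragment in leaf and at most 5 in DR.

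**Figure D4:**
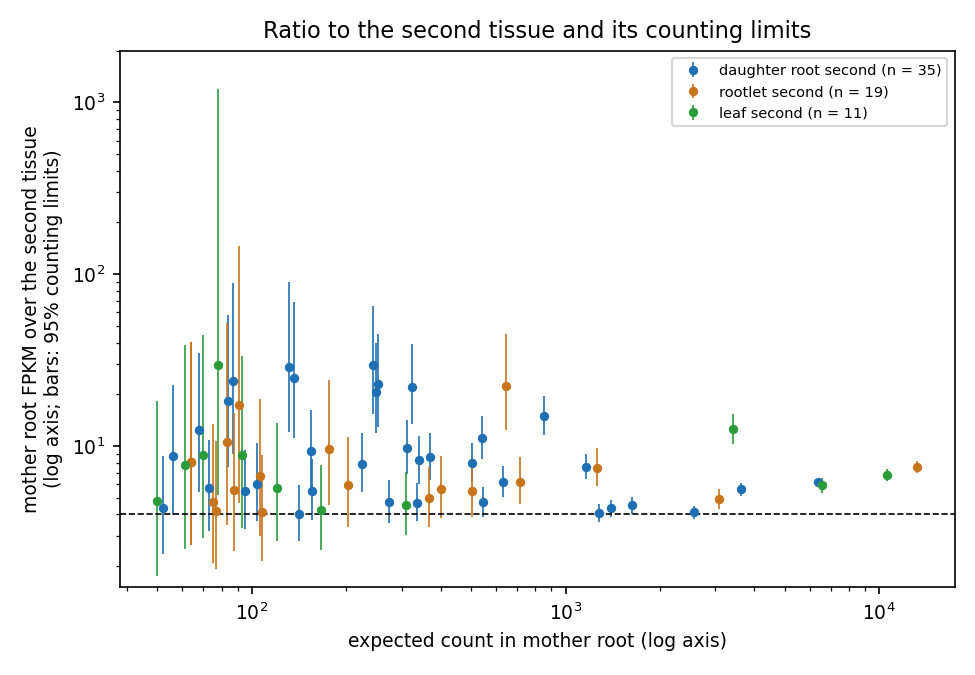
Ratio of mother root FPKM to the second tissue (y axis, log) against the expected count in mother root (x axis, log) for the 65 members with fragments in another tissue, colored by second tissue, with bars for the 95% counting limits. Limits are narrow above about 1000 fragments and, for many members near 100 fragments, cross the dashed line of 4 times.

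The thresholds cut through a continuous range. Just inside the threshold of 4 times were TR39886|c0_g2_i4 (4.03), TR42076|c1_g1_i1 (4.07), TR36054|c0_g1_i1 (4.10), TR55896|c0_g1_i1 (4.11) and TR19061|c0_g3_i1 (4.17). Just outside were TR29472|c0_g1_i1 (3.99), TR46334|c2_g2_i3 (3.97), TR52083|c2_g1_i4 (3.96), TR1547|c1_g1_i1 (3.88) and TR44237|c1_g4_i1 (3.87). Of these, TR46334|c2_g2_i3 (663 bases) would have been the third most abundant member, at 1286 FPKM in MR and 324 in RT. At the FPKM minimum, TR28867|c0_g1_i1 (20.3), TR28333|c0_g4_i1 (20.6) and TR16759|c0_g1_i1 (20.8) were inside, and TR50612|c0_g1_i3 (19.0), TR50121|c1_g1_i6 (17.4) and TR35575|c0_g2_i1 (16.7) outside. The count minimum alone kept out 8 transcripts, the nearest with 49 fragments, and the FPKM minimum alone kept out 42.

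The members were short sequences. Their median length was 398 bases (225 to 2700), against 952 bases for the 8412 transcripts past both minimums and 979, 695 and 754 bases for the transcripts dominant in leaf, daughter root and rootlet. At most 300 bases were assembled for 20 of the 66 (30.3%), compared with 8.51% of the 8412, and 14 members (21.2%) exceeded 1000 bases, compared with 48.0%. The median over all 129760 transcripts was 368 bases. The rule set no length, but its count minimum can ask a higher FPKM of a short sequence than of a long one. It does so more strongly in the smaller leaf and rootlet libraries, so lengths are not compared with those groups on equal terms. The FPKM of a short sequence also rests on few fragments. The 20 shortest members held 4.96% of the members' fragments with a median of 113 each, and the 14 longest held 55.5% with a median of 1221. The part of length and counting error in these shares was not tested. Lower limits of all 3 ratios were at least 4 for 9 of the 14 long members and for 9 of the 20 short ones.

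**Figure D5:**
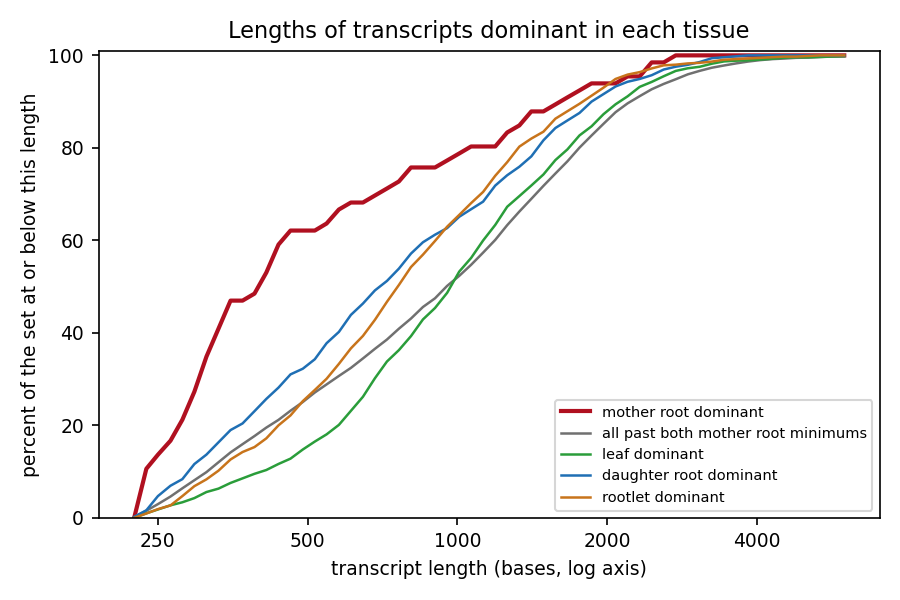
Cumulative percent of transcripts (y axis) at or below each length (x axis, bases, log) for the 66 members (red), all 8412 transcripts past both mother root minimums (grey) and the transcripts dominant in leaf, daughter root and rootlet by the same rule. The members' curve lies to the left, with a median of 398 bases.

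Among the 5 longest members, after TR53348|c0_g1_i2 came TR28867|c0_g1_i1 (2421 bases), at 20.3 FPKM in MR, 4.33 in DR, 2.25 in RT and 0.49 in LF. TR55683|c1_g1_i1 followed. TR45810|c0_g2_i1 (2146 bases) was at 145 FPKM in MR, 11.5 in LF, 6.06 in DR and 1.56 in RT, so that mother root was 12.6 times leaf (10.3 to 15.4) and 92.8 times rootlet (55.2 to 170). TR41899|c1_g1_i2 (1843 bases) was at 25.1 FPKM in MR and 4.60 in RT, while TR41899|c1_g1_i1 of the same Trinity gene was at 32.5 FPKM in LF, 18.8 in RT and 6.53 in MR.

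Descriptions could be attached to few members, because the study's annotation tables were held here only in part. Of the 66, 2 had an entry in those parts and 1 had a description. TR14514|c0_g1_i1 (283 bases) was described as heat shock, the name of a class of molecular chaperones that keep other proteins folded under heat and other stress. It was at 230 FPKM in MR, 46.3 in RT, 27.0 in DR and 8.22 in LF, with mother root 4.96 times rootlet (3.38 to 7.57). TR14362|c0_g1_i1 (264 bases), listed without a description, was at 77.3 FPKM in MR, 11.5 in RT, 2.67 in DR and 1.91 in LF.

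TR45810|c0_g2_i1 belonged to orthogroup OG0000066, in which TR18064|c0_g1_i1 and TR20659|c0_g1_i1 were described as heat shock proteins. The orthogroup held 9 *A. japonicum* transcripts, beside 3 of *A. carmichaelii* and 6 of *A. heterophyllum*. The 2 described transcripts had fragments in rootlet alone, 27 and 19. Their descriptions came from a list of transcripts that the study chose as specific to rootlet, so that pattern was set by the source. The 5 forms of TR49797|c2_g1 were the abundant ones, at 890 to 1819 FPKM in MR, 900.1 to 1665 in RT, 345 to 944 in DR and 97.8 to 428 in LF. Within the orthogroup, TR45810|c0_g2_i1 alone met the rule, and it alone was lower in rootlet than in leaf.

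Of the transcripts described as heat shock, 1 met the rule. In the held descriptions not chosen for one tissue, 25 carried the words heat shock: 13 were highest in rootlet, 9 in MR, 2 in LF and 1 in DR, and TR14514|c0_g1_i1 was the member. Of the 13, TR16913|c0_g1_i1 had 110 rootlet fragments and the others 3 to 16. The 25 had a median of 1.0 FPKM in mother root, and 8 of them had no fragment there. Their summed level was 1756 FPKM in MR, 1296 in RT, 928 in DR and 235 in LF, of which TR17370|c0_g1_i1 alone made up 929 FPKM in MR and 756 in RT. TR17370|c0_g1_i1, described as a cytosolic heat shock 70 protein, was at 574 FPKM in DR and 127 in LF. TR15545|c0_g1_i1, described as heat shock 81-1, was at 155 FPKM in MR, 52.5 in DR, 49.4 in RT and 26.2 in LF. Of all 3842 entries searched, 758 were highest in mother root, 905 were highest in rootlet and 2 were members. With so few members among the entries, nothing is read from the member counts of these lists. None of 9 transcripts described by other stress terms was a member, and 2 of the 9 were highest in mother root.

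Sequences of other organisms in the samples were looked for by the organism of the top database hit. Of 88 transcripts in the held tables with a top hit outside plants, 75 were highest in rootlet, 11 in LF, 2 in DR and none in MR, where they reached at most 2.20 FPKM. Fungi gave 75 of these hits. None of the 88 was a member, but none of the 66 members was in the held table that names the organism of the hit, so their own top hits were not analysed here.

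Of the members, 2 were in the held part of the list of orthogroups found in *A. japonicum* and *A. carmichaelii*, both toxic species, and not in *A. heterophyllum*. Of all 129760 transcripts, 1998 were in that part. TR36054|c0_g1_i1 (1746 bases, OG0023247) was at 137 FPKM in MR, 33.3 in DR, 14.8 in LF and 8.92 in RT. TR28867|c0_g1_i1 was in OG0022203. The held part of a list of annotated transcripts, which gives no descriptions, contained 15 members, TR28867|c0_g1_i1 among them, and 1998 of the 129760 transcripts. The study took that list by a minimum FPKM below that of the rule, so every member met its level criterion and nothing is read from the count.

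No member was on the study's lists for diterpene alkaloid biosynthesis, which held 50 and 17 transcripts. Over all 129760 transcripts 0.0509% were members, and over the 8412 past both minimums 0.785%. For lists of this size, no member is near those shares, so nothing is read from it. The shortest transcript on these lists had 512 bases, and 41 of the 66 members were shorter than that, so the lists bear on the other 25 alone. Diterpene alkaloids are built from the precursor GGPP, supplied by the mevalonate and methylerythritol pathways, which *ent*-copalyl diphosphate synthase and kaurene synthase (KS) cyclize and kaurene oxidase (KO) and other cytochrome P450 enzymes then oxidize. Of the 50 transcripts that the study assigned to these steps, 16 passed both mother root minimums, 3 of those were highest in mother root and 1 exceeded 2 times each other tissue. Their median ratio of mother root to the highest other tissue, over the 16, was 0.815, against 0.858 over the 8412. The study also listed 17 candidate P450 transcripts, which it chose because their levels followed alkaloid amounts across these same tissues, so their direction is not independent evidence. All 17 were highest in mother root, 8 passed both minimums, and the median ratio of the 8 was 2.04.

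The P450 nearest to the rule was TR47105|c2_g1_i1, at 26.4 FPKM in MR, 7.69 in DR, 0.44 in RT and 0 in LF, a ratio of 3.43 to daughter root (2.48 to 4.82). TR48287|c0_g1_i1 followed at 250.2 FPKM in MR and 81.8 in DR (3.06, limits 2.89 to 3.24). TR54550|c2_g1_i4 and TR39654|c0_g2_i5 stood at 2.55 and 2.10 times daughter root. The KS transcripts TR52848|c0_g1_i1 (30.9 FPKM in MR, 11.6 in RT) and TR44184|c3_g1_i2 (350 and 207 FPKM) and the KO transcript TR40067|c2_g1_i1 (320 and 211 FPKM) were 2.67, 1.69 and 1.52 times above rootlet. The upper limits of the 3 ratios to rootlet, at most 3.22, lay below 4.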

How the data were processed

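RNA was sequenced from 4 tissues of *A. japonicum*, 1 library each, on an Illumina HiSeq platform with a strand-specific kit. The authors trimmed the paired reads with Trimmomatic, pooled all tissues for a de novo Trinity assembly, reduced redundancy with CD-HIT-EST and quantified each library with Bowtie 2 and RSEM. The deposited tables give, per transcript, an RSEM expected count, an FPKM and a TPM. The deposited percent of a gene held by each transcript is 0 or 100 throughout and was not used. The authors' tables name each transcript as its own gene, so forms were not pooled. The deposited expected counts were whole numbers, and each deposited FPKM was recomputed from them within rounding. The deposited TPM values served as an alternative scale. No genome was used and no coordinates or sequences of the members are given.

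The 4 tables were joined on the transcript identifier (Python 3.11.15, pandas 2.3.3). Ratios of counts, scaled by effective length and library total, carry conditional binomial (Clopper-Pearson) limits from scipy 1.17.1, checked on simulated data. With 1 library per tissue no test was made. The members and lists were chosen with earlier results of these data known. Named transcripts were the 12 with the highest mother root FPKM, the 10 with the largest lower counting limits, those with a description, those of the Trinity genes and components with the most members, the 3 highest in each second tissue, those nearest the thresholds, the P450, KS and KO transcripts, and the 5 longest. Transcripts named beyond this rule, such as other forms in a member's component and those almost absent from leaf and daughter root, were picked after their values were seen. Descriptions, orthogroups and lists came from the held parts of the study's tables. The Blastx descriptions lose the digit 0 in places.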

Additional observations from a re-analysis of the deposited data

How the results depend on the processing

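The number of members, 66, moved with each threshold. It was 302, 112 and 27 at 2, 3 and 8 times, 38 and 25 at FPKM minimums of 50 and 100, and 35 at a count minimum of 200. It was 41 with a count of 50 asked at the depth of the smallest library, and 33 when all 3 lower counting limits had to reach 4. Leaving leaf, rootlet or daughter root out of the rule gave 119, 243 or 245. The number stayed within 1.5 times at an FPKM minimum of 10 (82), with no count minimum (74), with TPM (63), with 1 FPKM added (60), per Trinity gene (56) and with median-of-ratios factors (53). The factors lowered mother root by 0.16, 0.21 and 0.17 on the log2 scale against leaf, daughter root and rootlet. FPKM, TPM and the scaled values shared 50 members. All 66 stayed highest in mother root on each scale, but shifts of this size could not undo a ratio of at least 4, so nothing is read from that. The share with daughter root second lay between 45.7% and 63.6% in the 14 alternatives that kept all 3 comparisons. No paired analysis was possible because each tissue had 1 library. Depth limits the members near 50 fragments most.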

Other observations

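TR55681|c1_g1_i1, of 8813 bases, shared its component with the member TR55681|c1_g3_i1 and took 39631 fragments in mother root and 8859 in rootlet, against 10 in daughter root and 0 in leaf. The third transcript, TR55681|c1_g2_i1 (417 bases), had 94.8 FPKM in mother root, 33.1 in rootlet and none in the other 2 libraries. Neither had a description in the tables used here.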
